A study of Mus musculus with 7 samples.

Results

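The genes described here are 36 genes of homologous recombination, the Fanconi anaemia pathway, the MRN break-sensing complex and the ATR checkpoint, taken by name from a table of 46959 features. Of the 36 names, 35 matched a row exactly, and claspin was read from its row Clspn. They were measured by RNA sequencing in mouse splenic B cells kept in culture for 4 days with LPS (bacterial lipopolysaccharide) at 1 µg/mL plus the cytokine IL-4 at 20 ng/mL, a mixture that makes B cells divide and switch antibody class. Libraries labelled WT (wild type, n = 3) were set against libraries labelled cKO MED1 (n = 4), a genotype named after Med1, whose product is part of Mediator, the large complex between transcription factors and the polymerase. Both groups had the same LPS and IL-4 culture. How the cKO allele was made and in which cells it acts, the strain and the age of the mice are not given in the sources used here, nor is it said whether the replicates came from separate animals, and the p-values therefore cover the spread among libraries, which may be technical. The cKO MED1 libraries did not all come from the same animal, since their reads differ in sex, as described below.

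Homologous recombination repairs a broken chromosome by copying an intact sister, so it works mainly during and after DNA replication. The MRN complex and CtIP (gene Rbbp8) trim the broken ends, the BRCA proteins load a recombinase onto the exposed strand with help from the recombinase's paralogs, and helicases and nucleases take the joined molecules apart. The Fanconi core complex marks the FANCD2-FANCI pair with ubiquitin at crosslinked DNA, and ATR with its partners holds the cell cycle while forks are stalled. Activated B cells divide fast and also break their own antibody genes on purpose, so they carry out both replication and break repair.

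Med1 itself was at 4380 ± 326 (SD, n = 3) normalised reads in WT and 2361 ± 186 (SD, n = 4) in cKO MED1, so that 53.9% of the WT level remained (log2 fold change -0.89, limma adjusted p = 0.000174). Normalised reads are whole reads recovered from the deposited values and scaled to a common library of 48019763 reads. Recovered reads ranged from 54736580 to 61149274 in WT and from 31937372 to 49603193 in cKO MED1, and each member had between 47 and 14332 recovered reads in a library. B cell markers were abundant in every library, with 8 of them summing to 338434 to 350250 normalised reads in WT and 276912 to 322589 in cKO MED1, where 5 of the 8 fell. Markers of other cell types were low apart from Lck and Pecam1, but most had higher means in cKO MED1. Of 8 T cell markers 7 did, and without Lck, which fell and makes up most of their sum, they summed to 46.8 to 68.7 normalised reads in WT and 61.0 to 176 in cKO MED1. Cd3d was above the WT range in all 4 cKO MED1 libraries, and Cd3e was at no more than 9.15 in any library. Of 5 stromal markers 4 had higher means, and without Pecam1, which fell, they summed to 48.9 to 80.6 in WT and 79.9 to 221 in cKO MED1. The 8 myeloid markers summed to 159 to 303 and 164 to 364, with 6 higher in their means and 3 (Cd14, S100a8 and Ly6g) above the WT range in all 4 cKO MED1 libraries, while S100a9 was at 0 in all 3 WT libraries and at 1.36, 0, 1.32 and 7.32 in cKO MED1. All 4 erythroid markers had higher means (sums of 57.1 to 143 and 98.8 to 413), and Hba-a1 rose from 17.0 to 118 (log2 fold change 2.62, limma adjusted p = 0.0117). The 5 NK cell markers summed to 159.9 to 255 and 77.2 to 236, with 3 higher in their means. The part of other cell types in the changes of the 36 genes was not tested. In bulk RNA, fewer cells of a type and less RNA per cell cannot be told apart.

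Of the 36 genes, 20 fell in cKO MED1 and 0 rose, at a limma adjusted p under 0.05 over all 18062 genes tested. All 36 passed the filter on low reads. Among all genes tested 28% were called, 14.6% as lower and 13.4% as higher. At an adjusted p under 0.05, edgeR called 20 members lower and 0 higher, where 14.8% of all genes tested were lower. DESeq2 called 21 lower and 0 higher, where 16.8% of all genes tested were lower. The median log2 fold change (cKO MED1 minus WT) of the 36 genes was -0.33, with a range from -0.67 to 0.25, where the median over all genes tested was 0.04. The falls were moderate, as the 20 genes kept between 62.7% and 82.0% of their WT means. Calls of lower expression were more common among abundant genes in these data. When all genes tested were split into 3 equal parts by mean reads, the most abundant part held 19 members, of which 15 fell and 0 rose, against 27.8% and 5.6% of all genes there. The intermediate part held 17 members, of which 5 fell and 0 rose, against 15.2% and 13% of all genes. The least abundant part, where 0.93% of genes fell and 21.6% rose, held 0 members. Its median log2 fold change, 0.77, raised the median over all genes. In the most abundant part the median was -0.40 for the members and -0.15 for all genes. In the intermediate part it was -0.16 and -0.03.

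**Figure D1:**
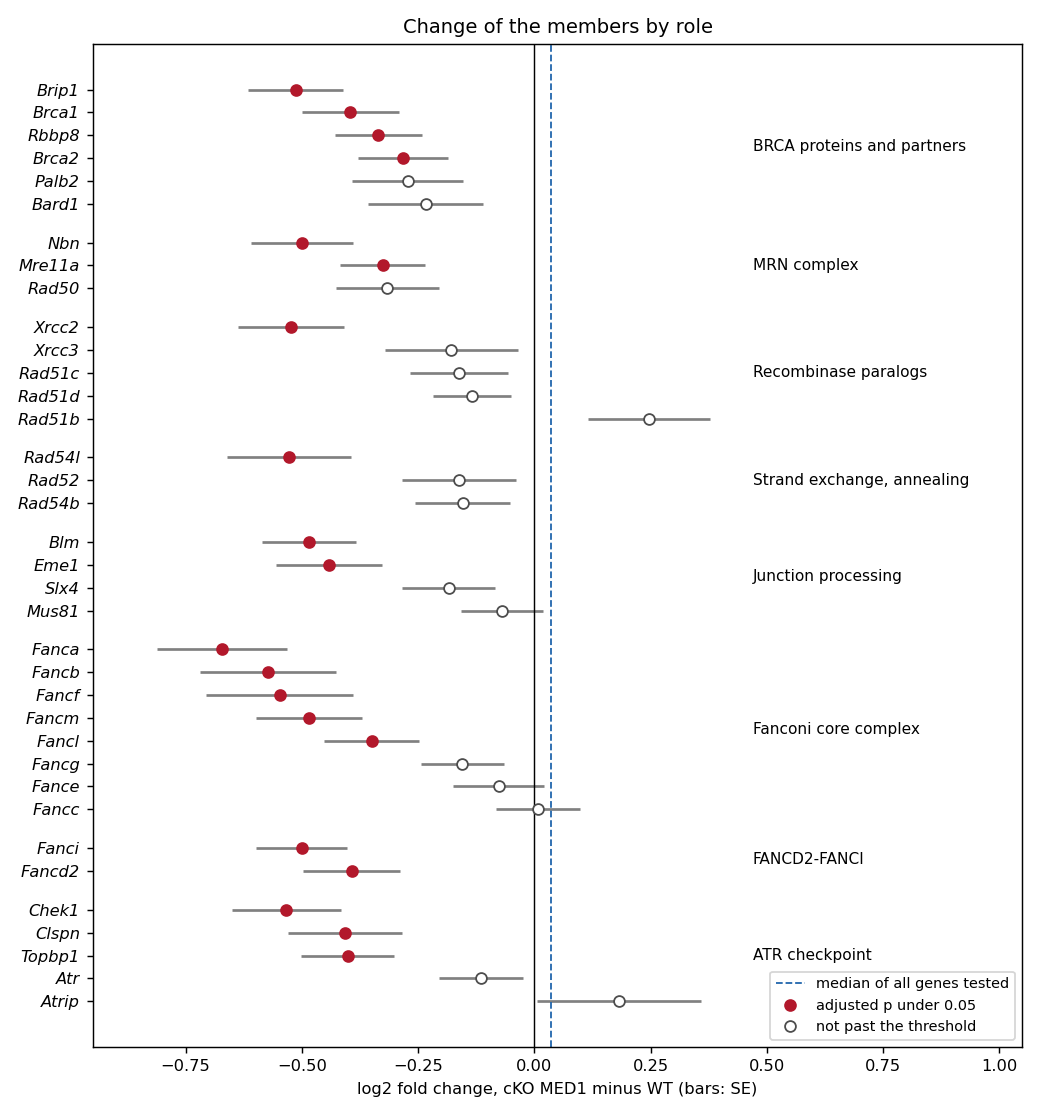
Log2 fold change (cKO MED1 minus WT, horizontal axis, bars give the SE) of each of the 36 genes, grouped by role. Filled points passed the limma threshold of 0.05 and open points did not, and the dashed line is the median of all genes tested, 0.04. The 20 filled points lie between -0.28 and -0.67, and the open points reach from -0.32 to 0.25.

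Among the BRCA proteins and their partners 4 of 6 genes fell. Brip1 encodes the FANCJ helicase that binds BRCA1 and lies on chromosome 11 from 86058138 to 86201193 in GRCm38. Its normalised reads in WT replicates 1 to 3 were 2293, 1788 and 1955. In cKO MED1 replicates 1 to 4 they were 1518, 1439, 1380.2 and 1281. All 4 cKO MED1 libraries were below the lowest WT library, and the means were 2012 ± 258 (SD, n = 3) in WT and 1404 ± 99.7 (SD, n = 4) in cKO MED1 (limma log2 difference -0.51 with an SE of 0.10, adjusted p = 0.00676). Brca1, whose product promotes end trimming and recombinase loading, was at 3133, 2504 and 2567 reads in WT and 2298, 2012, 2112 and 1872 in cKO MED1, again without overlap (limma log2 difference -0.40 with an SE of 0.10, adjusted p = 0.0208). Rbbp8 encodes CtIP, which starts end trimming with the MRN complex, and its reads were 1612, 1347 and 1442 in WT and 1195, 1153, 1231 and 1063 in cKO MED1 (limma log2 difference -0.34 with an SE of 0.09, adjusted p = 0.0248). Brca2, which encodes the protein that loads the recombinase, fell by less (-0.28, limma adjusted p = 0.0482), and this call ended in 10 of 21 alternatives. Neither Bard1, the partner of BRCA1 in its ubiquitin ligase, nor Palb2, the bridge between BRCA1 and BRCA2, passed the test (log2 fold change -0.23, limma adjusted p = 0.166, and -0.27, limma adjusted p = 0.1). Bard1 stood at 947 to 993 reads in cKO MED1 replicates 1 to 3 and at 721 in replicate 4.

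The 3 genes of the MRN complex were all lower in their fitted values, and 2 of them passed. Nbn encodes NBS1, the subunit that recruits the ATM kinase, and lies on chromosome 4 from 15957925 to 15992589. Its normalised reads were 1519, 1470.4 and 1325 in WT and 1123, 1138, 877 and 948 in cKO MED1, where every library was below the WT range (limma log2 difference -0.50 with an SE of 0.11, adjusted p = 0.0102). Mre11a, the nuclease of the complex, was at 2399, 2121 and 2079 reads in WT and 1901, 1802, 1682 and 1631 in cKO MED1, without overlap (limma log2 difference -0.33 with an SE of 0.09, adjusted p = 0.0248). Rad50, the ATPase that tethers the ends, had reads of 3553, 3163 and 2996 in WT and 3035, 2728, 2315 and 2361 in cKO MED1. The first cKO MED1 library was inside the WT range, and Rad50 did not pass (limma log2 difference -0.32 with an SE of 0.11, adjusted p = 0.052).

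The 5 paralogs of the recombinase gave 1 call. Xrcc2, a subunit of the complex that assists the recombinase, was read at 666, 569 and 516 in WT and 396, 441, 415 and 366 in cKO MED1, so the groups were apart (limma log2 difference -0.52 with an SE of 0.11, adjusted p = 0.01). Rad51d, whose product pairs with XRCC2, was at 971, 965 and 949 reads in WT and 882, 896, 818 and 915 in cKO MED1, also apart but by a narrower margin (limma log2 difference -0.13 with an SE of 0.08, adjusted p = 0.239). Rad51b had the highest fitted value of the 36 genes, with 232, 206 and 204 reads in WT and 262, 258, 213 and 287 in cKO MED1. Replicate 3 of cKO MED1 was inside the WT range while the other libraries of that group were above it, and the gene did not pass (limma log2 difference 0.25 with an SE of 0.13, adjusted p = 0.165). Rad51c and Xrcc3, which encode partners of each other, were not past the threshold either (log2 fold change -0.16 and -0.18, limma adjusted p = 0.251 and 0.358).

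In the group of strand exchange and annealing genes Rad54l fell. Its product is a motor protein that drives strand invasion, and the gene lies on chromosome 4 from 116094264 to 116123690. It had 2104, 1550.4 and 1577 normalised reads in WT and 1301, 1176, 1345 and 999 in cKO MED1, with WT replicate 1 well above the other WT libraries and no overlap between the groups (limma log2 difference -0.53 with an SE of 0.13, adjusted p = 0.0169). Rad54b, its relative, was at 729, 634 and 592 reads in WT and 631, 566, 558 and 580.1 in cKO MED1, and the groups overlapped (limma log2 difference -0.15 with an SE of 0.10, adjusted p = 0.262). Exons of Fsbp on the same strand cover 35.8% of the exon bases of Rad54b, and no source used here says to which gene shared reads went. Rad52, which anneals single strands, had 507, 550.0 and 469 reads in WT and 454, 495, 374 and 503 in cKO MED1, where only replicate 1 and replicate 3 were below the WT range (limma log2 difference -0.16 with an SE of 0.12, adjusted p = 0.324).

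Of the 4 genes that process joined molecules, Blm and Eme1 fell. Blm, the Bloom syndrome helicase, was read at 2465, 1987 and 2056 in WT and 1688, 1586, 1416 and 1493 in cKO MED1, and all cKO MED1 values were below the WT range (limma log2 difference -0.49 with an SE of 0.10, adjusted p = 0.00807). Eme1, the regulatory subunit of the MUS81 nuclease, was at 901, 707 and 696 reads in WT and 602, 568, 572 and 507 in cKO MED1 (limma log2 difference -0.44 with an SE of 0.11, adjusted p = 0.0185). Slx4, the scaffold of the nucleases, had 2132, 1996 and 2228 reads in WT and 2202, 1765, 1746 and 1775 in cKO MED1, of which replicate 1 was near the top of the WT range and the other 3 libraries of that group were below it (limma log2 difference -0.18 with an SE of 0.10, adjusted p = 0.179). Mus81, the catalytic partner of Eme1, was at 853 to 961 reads in WT and 822 to 911 in cKO MED1 (limma log2 difference -0.07 with an SE of 0.09, adjusted p = 0.566).

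**Figure D2:**
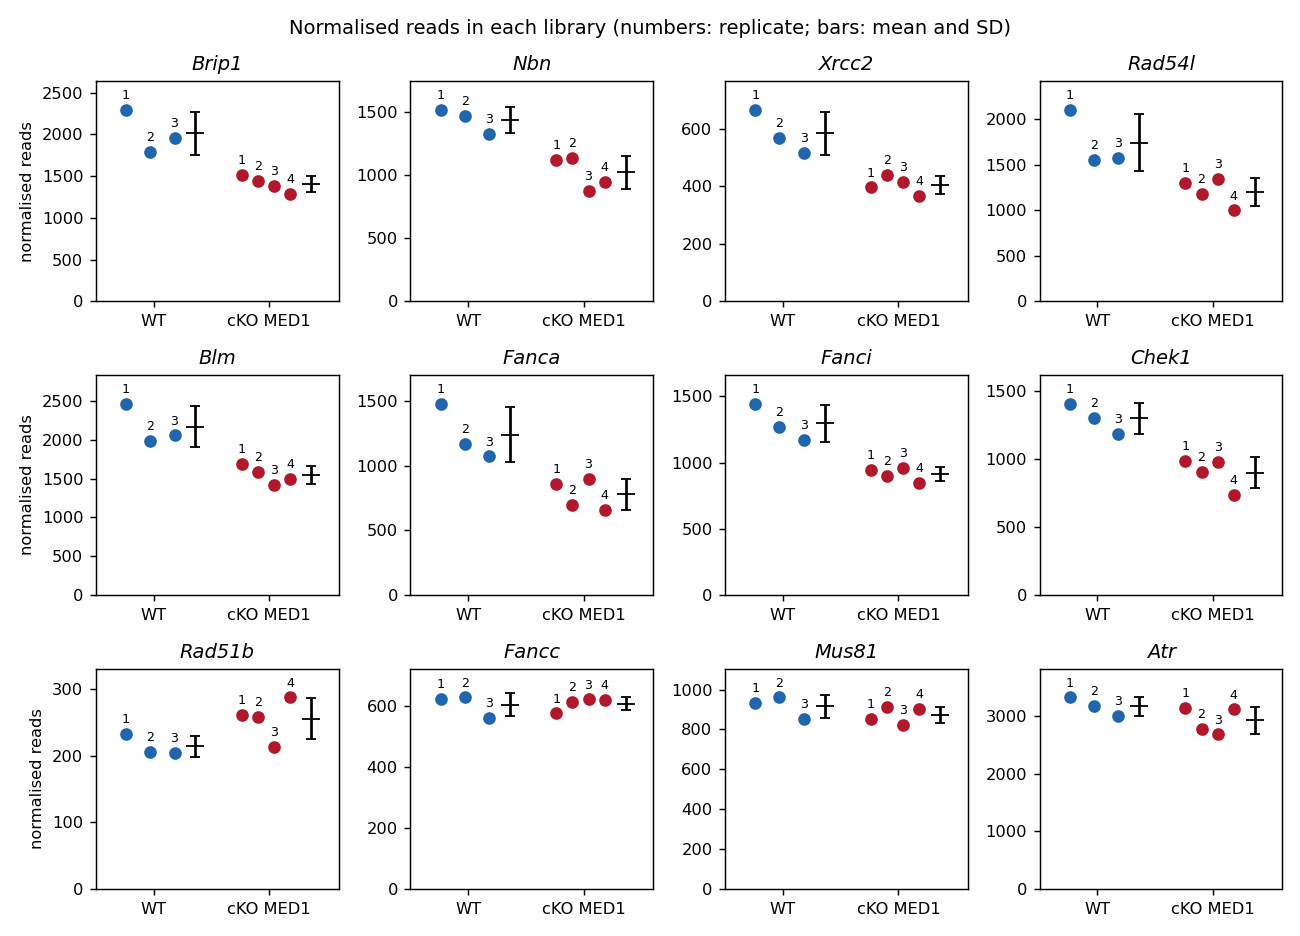
Normalised reads (vertical axis, from 0) of 12 of the genes in each WT library (blue) and cKO MED1 library (red), numbered by replicate, with the mean and SD of each group in black. In the top 8 panels every red point is below every blue point, and in the panels of Rad51b, Fancc, Mus81 and Atr the groups overlap.

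The Fanconi core complex held the largest fall of the 36 genes, and 5 of its 8 genes were lower. Fanca, a large scaffold subunit, lies on chromosome 8 from 123268300 to 123318576 and was read at 1482, 1169 and 1073 in WT and 858, 699.9, 899.5 and 657 in cKO MED1. The groups were apart, and 62.7% of the WT mean remained (limma log2 difference -0.67 with an SE of 0.14, adjusted p = 0.00795). Fancm, the translocase that anchors the complex to DNA, was at 1663, 1381 and 1441 reads in WT and 1213, 1027, 1141 and 904 in cKO MED1 (limma log2 difference -0.48 with an SE of 0.11, adjusted p = 0.0134). Fancb, the X-linked partner of the ligase subunit, was at 507, 425 and 358 reads in WT and 294, 274, 341 and 243 in cKO MED1 (limma log2 difference -0.57 with an SE of 0.15, adjusted p = 0.0183). Both genes had every cKO MED1 library below the WT range. Fancf (log2 fold change -0.55, limma adjusted p = 0.0274) and Fancl, the ubiquitin ligase subunit (-0.35, limma adjusted p = 0.0284), fell as well. Fancg (-0.15, limma adjusted p = 0.197), Fance (-0.08, limma adjusted p = 0.572) and Fancc (0.01, limma adjusted p = 0.952) did not pass, and reads of Fancc ran from 563 to 629.96 in WT and from 577 to 623 in cKO MED1.

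Both genes of the FANCD2-FANCI pair, the target of the core complex, fell. Fanci, on chromosome 7 from 79391929 to 79450264, had 1444, 1269.7 and 1173 normalised reads in WT and 947, 902, 961 and 844 in cKO MED1, means of 1296 ± 138 (SD, n = 3) in WT and 913 ± 53.1 (SD, n = 4) in cKO MED1 (limma log2 difference -0.50 with an SE of 0.10, adjusted p = 0.00587). This was the smallest adjusted p of the 36 genes. Fancd2 was at 2003, 1865 and 1701 in WT and 1612, 1370.5, 1447 and 1237 in cKO MED1 (limma log2 difference -0.39 with an SE of 0.10, adjusted p = 0.0209). Neither gene had a cKO MED1 library inside the WT range.

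Of the 5 ATR checkpoint genes, 3 fell. Chek1, the kinase that ATR activates, lies on chromosome 9 from 36708482 to 36727065 and was read at 1406, 1299 and 1185 in WT and 986, 903, 976 and 734 in cKO MED1, so that 69.4% of the WT mean remained (limma log2 difference -0.53 with an SE of 0.12, adjusted p = 0.00977). Topbp1, the activator of ATR, was the most abundant of the 36 genes per length, at 799 normalised reads per kb of exon in WT. Its reads were 9868, 8415 and 8626 in WT and 7314, 7109, 6721 and 6030.3 in cKO MED1 (limma log2 difference -0.40 with an SE of 0.10, adjusted p = 0.0167). Clspn encodes claspin, the adaptor between ATR and CHEK1, and was at 2622, 1871 and 2006 in WT and 1813, 1492, 1682 and 1501 in cKO MED1 (limma log2 difference -0.41 with an SE of 0.12, adjusted p = 0.0321). All 3 of these genes had no overlap between groups. Atr itself and Atrip, its obligate partner, did not pass (log2 fold change -0.12, limma adjusted p = 0.342, and 0.18, limma adjusted p = 0.448). Atrip was the least abundant per length, at 12.6 reads per kb in WT, and Trex1, whose exons cover 16.04% of those of Atrip on the same strand, is listed at 0 in all 7 libraries.

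For 23 of the 36 genes the groups did not overlap, in each case with cKO MED1 lower, where 19.8% of all genes tested were lower without overlap. These 23 include all 20 genes that fell, besides Rad51c, Rad51d and Fancg. WT replicate 1 held the highest value for all 20 genes that fell, and cKO MED1 replicate 4 the lowest for 16 of them. Relative to the WT mean, the mean log2 level of the 20 genes was 0.18, -0.08 and -0.10 in the 3 WT libraries. It was -0.36, -0.45, -0.41 and -0.61 in the 4 libraries of cKO MED1, in order of replicate number. The other 16 genes averaged between -0.04 and -0.15 in the cKO MED1 libraries.

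Replication and mitosis genes had the same library order at both ends. The mean of 22 replication genes was 0.22 in WT replicate 1 and -0.84 in cKO MED1 replicate 4, with the other WT libraries at -0.08 and -0.13 and the other cKO MED1 libraries between -0.46 and -0.51. Of these 22 genes, which include the helicase genes Mcm2 and Mcm5, 21 fell and 0 rose, with a median log2 fold change of -0.57. For 20 mitosis genes the counts were 16 and 0 and the median -0.39, and for 13 end joining genes 3 and 0 and -0.23. Among all genes tested 14.6% fell and 13.4% rose, and in their most abundant part 27.8% fell. The part of the cell cycle state of each culture in the values of the 36 genes was not tested. cKO MED1 replicate 4 also had the most reads of 14 genes listed as neuronal or muscle genes. They summed to 1726 there, against 654 to 931 in WT and 841 to 1154 in the other cKO MED1 libraries. Ryr1, the most abundant of them, was at 372 to 555 reads in every library. Without Ryr1 the sums were 282 to 401 in WT and 434 to 1171 in cKO MED1, so all 4 cKO MED1 libraries exceeded every WT library. Mitochondrial ribosomal RNA took 23.2%, 29.3%, 35.3% and 38.4% of the reads of cKO MED1 replicates 1 to 4, against 19.1% to 24.3% in WT, so 3 of the 4 exceeded every WT library. The part of the ribosomal RNA share in the result was not tested. With a background per kb of exon subtracted, estimated from olfactory and vomeronasal receptor genes, 20 members were again lower, and that background was at most 3.34% of a member's mean in cKO MED1. The background was uneven, at 0.02 to 0.16 reads per kb in WT and 0.11 to 1.00 in cKO MED1. It was highest in cKO MED1 replicate 4, where for Atrip it came to 7.13 of 86.0 normalised reads.

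**Figure D3:**
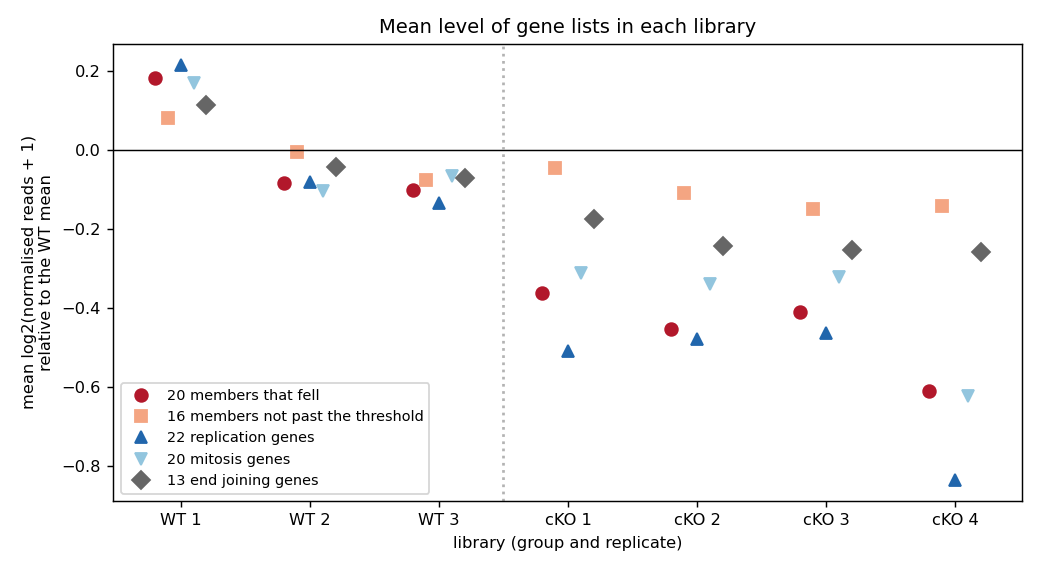
Mean log2(normalised reads + 1) relative to the WT mean (vertical axis) in each of the 7 libraries for the 20 genes that fell, the 16 that did not pass, and lists of replication, mitosis and end joining genes. WT replicate 1 is highest for every list, and in cKO MED1 the 20 genes run from -0.36 to -0.61 while the 16 others stay between -0.04 and -0.15.

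The count of 20 depended on single libraries. When WT replicate 1 was left out, 7 members were lower (Brip1, Nbn, Xrcc2, Blm, Fanca, Fanci and Chek1). When cKO MED1 replicate 4 was left out, 11 were. Calls were lost over the whole table as well. The share of all genes tested that fell was 14.6% as reported, 5.25% without WT replicate 1 and 8.9% without cKO MED1 replicate 4. Sex went largely with genotype, since normalised reads of the Y-linked gene Ddx3y ran from 4496 to 4895 in the WT libraries, and among those of cKO MED1 replicate 3 alone had it (4469.9, the others at most 4.07). Apart from that 1 male library, sex and genotype cannot be told apart. Xist, a transcript of female cells, was at 59.2, 1241 and 11.2 normalised reads in WT replicates 1 to 3. It was at 48.7 in cKO MED1 replicate 3 and between 36381 and 41074 in the other libraries of that group. The source of the Xist reads in WT replicate 2 was not tested. When sex entered the model as a covariate, the calls of the members did not hold. That fit compares 1 library, cKO MED1 replicate 3, with the WT mean, and gave log2 fold changes from -0.25 to -0.71 for the 20 genes, which had been called with that library included.

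**Figure D4:**
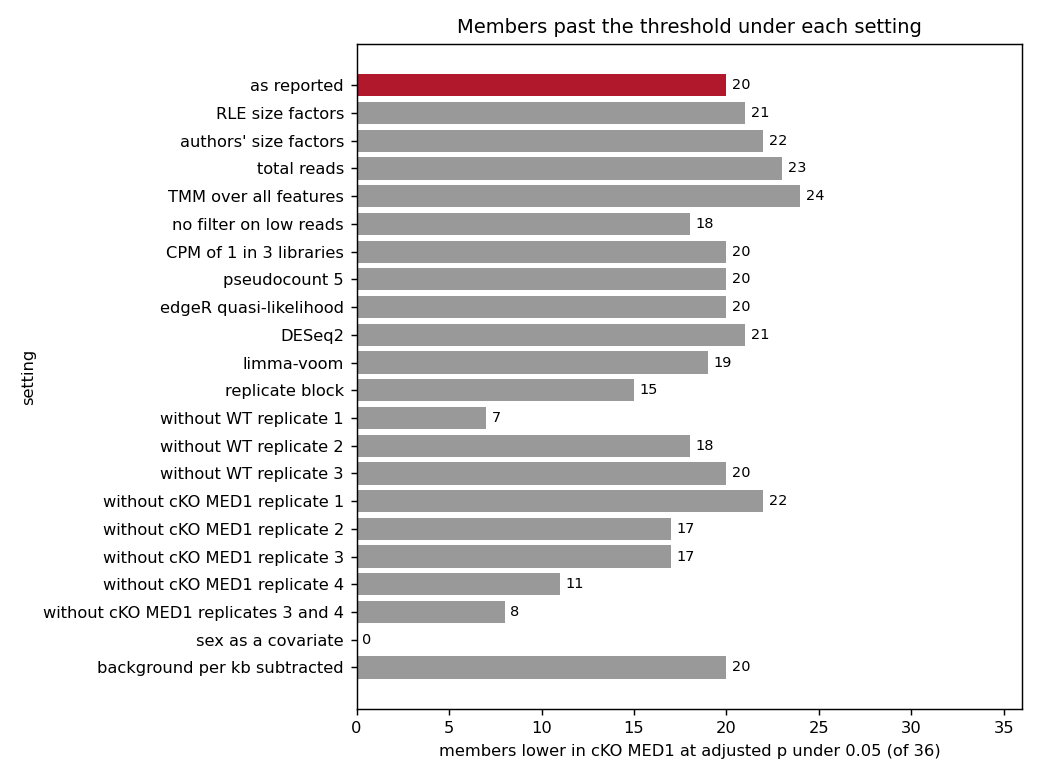
Number of the 36 genes lower in cKO MED1 at an adjusted p under 0.05 (horizontal axis) as reported (red) and under each alternative (grey). The count is 20 as reported, and it is lowest with sex in the model (0), without WT replicate 1 (7) and without both cKO MED1 replicates 3 and 4 (8).

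Partner genes were compared within each library, since the ratio of 2 genes does not depend on the scaling of libraries. The 8 pairs were chosen after their values had been seen. The log2 ratio of Xrcc2 to Rad51d was -0.73 ± 0.17 (SD, n = 3) in WT and -1.12 ± 0.15 (SD, n = 4) in cKO MED1, without overlap. That of Eme1 to Mus81 was -0.26 ± 0.20 (SD, n = 3) and -0.64 ± 0.15 (SD, n = 4), also without overlap. Each gave p = 0.0286 in a two-sided exact permutation test, the smallest p that 35 assignments allow, and 0.114 after adjustment over the 8 pairs. An adjusted p under 0.05 would need at least 5 pairs at that smallest p, so the test could not call a single pair. For Brca1 to Bard1 (difference -0.16), Brca2 to Palb2 (-0.01), Mre11a to Rad50 (-0.01), Xrcc3 to Rad51c (-0.02), Fanci to Fancd2 (-0.11) and Atr to Atrip (-0.30) the groups overlapped, with exact permutation p-values, adjusted over the pairs, from 0.229 to 0.943.

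Other genes of the same pathways showed falls in each role. Of 63 listed genes, 25 fell and 1 rose (14.6% and 13.4% of all genes tested), with a median log2 fold change of -0.20. Exo1, the long-range trimming nuclease, had the largest change (-0.84), with normalised reads of 1589 ± 302 (SD, n = 3) in WT and 884 ± 116 (SD, n = 4) in cKO MED1 (SE 0.14, limma adjusted p = 0.0029). Rpa2 (-0.69) and Rpa1 (-0.57), which encode subunits of the single-strand binding protein, fell, whereas Rpa3 did not pass (0.08, limma adjusted p = 0.799). Among 12 genes of the recombinase and its accessory factors 4 fell, including Nucks1 (-0.56) and Mcm8, a helicase gene (-0.49). Anti-recombinase helicases and related factors fell in 4 of 10 cases, with Fignl1 (-0.64), Recql5 (-0.42) and Recql (-0.45) having the smallest p. Of 8 genes for dissolution and nucleases 3 fell, Rmi2 (-0.62) and Top3a (-0.37), whose products work with BLM, and the resolvase gene Gen1 (-0.59). In the BRCA1-A complex 1 of 5 genes fell, Bre (-0.38).

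Checkpoint factors besides the 5 members fell in 7 of 12 cases. Etaa1 (-0.53), which encodes an activator of ATR, and the fork protection pair Timeless (-0.50) and Tipin (-0.45) had the smallest p. Fanconi-associated genes went both ways, with 3 of 11 lower and 1 higher. Faap24 (-0.69) and Apitd1 (-0.66), whose products bind DNA with FANCM, fell, as did Usp1 (-0.57), whose product removes ubiquitin from FANCD2. The 1 gene that rose was Fan1, a nuclease gene, read at 215, 233 and 210.0 in WT and 306, 284, 257 and 373 in cKO MED1, with all cKO MED1 libraries above the WT range (limma log2 difference 0.46 with an SE of 0.14, adjusted p = 0.0308). This call ended in 9 of 21 alternatives. Scaled by total reads, the log2 fold change Fan1 showed was 0.22 (limma adjusted p = 0.338). Leaving out WT replicate 1, 2 or 3 gave 0.40, 0.45 and 0.38 (limma adjusted p = 0.142, 0.073 and 0.108).

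The promoters of the members were searched for words of cell cycle factors. The window was the 250 bases before the RefSeq start, given for 29 of the 36 genes. An E2F word (TTTCCCGC, TTTGGCGC or TTTCGCGC, either strand) was in 4 of the 29 (13.8%), namely Topbp1, Brca2, Bard1 and Fancg. It was in 1.78% of the 27025 genes in the promoter table, in 3.24% of the 11262 genes tested that have a promoter there, in 1 of 47 other pathway genes (2.13%) and in 8 of 18 replication genes (44.4%). Among members with a promoter it was in 2 of the 16 that fell and in 2 of the 13 that did not pass. The cell cycle homology word TTTGAA was in 1 member (3.45%, against 18.3% of all genes and 13.2% of those tested) and CCAAT in 16 (55.2%, against 37.5% and 40.2%, and 63.8% of other pathway genes). CCAAT was in 10 of the 16 members that fell (62.5%), in 6 of the 13 that did not pass (46.2%) and in 13 of 18 replication genes (72.2%). Each gene counts once per motif, whether or not matches share bases. The stretches below are those of the 2 genes that fell and hold an E2F word, and of the 2 members with the highest p. The promoters of the latter 2 hold CCAAT and no E2F word, but CCAAT does not set members that did not pass apart from those that fell. They run 5′ to 3′ on the strand of the gene (GRCm38.p6), leave out annotated exon bases, and show the words in capitals. Topbp1 (chr9:103305083-103305214, plus strand) has its E2F word from 129 bases before the start, Brca2 (chr5:150522371-150522620, plus strand) from 168 bases, and Fancc (chr13:63431746-63431995, minus strand) and Fance (chr17:28313280-28313518, plus strand) have ATTGG, the reverse complement of CCAAT, from 242 and 202 bases. A word match is a description of the letters and shows no binding.
Topbp1: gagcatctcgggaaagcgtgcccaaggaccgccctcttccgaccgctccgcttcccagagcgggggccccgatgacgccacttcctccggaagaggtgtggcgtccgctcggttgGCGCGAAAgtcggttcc
Brca2: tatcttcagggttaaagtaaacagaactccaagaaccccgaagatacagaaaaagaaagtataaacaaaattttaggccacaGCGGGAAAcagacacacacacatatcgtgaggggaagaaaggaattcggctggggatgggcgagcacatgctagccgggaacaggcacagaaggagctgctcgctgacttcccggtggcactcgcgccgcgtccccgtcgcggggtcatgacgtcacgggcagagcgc
Fancc: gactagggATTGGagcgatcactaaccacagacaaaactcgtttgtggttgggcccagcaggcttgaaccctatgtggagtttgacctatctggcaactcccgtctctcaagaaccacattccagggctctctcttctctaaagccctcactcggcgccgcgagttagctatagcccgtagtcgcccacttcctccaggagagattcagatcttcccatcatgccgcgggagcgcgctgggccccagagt
Fance: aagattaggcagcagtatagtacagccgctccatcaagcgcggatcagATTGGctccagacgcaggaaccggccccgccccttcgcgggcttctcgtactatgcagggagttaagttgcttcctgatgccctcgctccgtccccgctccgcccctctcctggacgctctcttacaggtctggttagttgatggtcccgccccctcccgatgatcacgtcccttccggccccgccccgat

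Several members share exon bases with a gene on the other strand, and no source used here says whether reads were counted by strand. Among the 20 genes that fell, 6 shared over 5% of their exon bases with a protein-coding neighbour. These were Fanci with Polg (15.95%), Rad54l with Lrrc41 (15.4%), Fancf with Gas2 (15.0%), Fancl with Vrk2 (13.7%), Fanca with Zfp276 (10.5%) and Eme1 with Lrrc59 (8.0%). Of the 6 neighbours, Lrrc59 passed the test (log2 fold change -0.36, limma adjusted p = 0.0411).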

How the data were processed

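The authors deposited 1 table with a signal per gene for the 7 libraries, reads divided by 1 size factor per library, as the values show: each value, divided by the lowest nonzero step in its column, was a whole number (100%, tolerance 1e-06), so whole reads were recovered. Libraries came from a stranded total RNA kit (14 cycles, 150 bp paired reads), per the labels' protocols. The tools named per the submitters' processing notes are STAR (2.4.0a), DESeq2 in R 3.4, and featureCounts of Subread 1.5.0-p3, and the build is GRCm38 (mm10). The phiX174 row (at most 0.000383% of reads) was left out.

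TMM factors (edgeR 4.0.16) were computed over the 18062 genes kept by filterByExpr. Log2(normalised reads + 1) was tested in limma 3.58.1 under R 4.3.3 (trend over intensity), Benjamini-Hochberg adjusted over all genes tested, threshold 0.05. The added 1 makes changes of low genes look smaller. On simulated reads, log2 changes of 0.5, 1 and 2 were given to 67, 67 and 66 genes. They were recovered for 22.4%, 61.2% and 80.3% of these, and 9 calls among 17569 genes were false.

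Every member is named. Values in every library are given for up to 3 members with the smallest p in each of 8 roles. Other pathway genes are named by the same rule, up to 3 called genes per role and every rise, and 1 that the rule takes is not reported here. Of 64 other pathway genes listed, 63 were in the table. Genes in the plot of reads by library, and Rad51c and Fancg beside the overlap count, were picked after their values were seen, as were the overlapping neighbours. Members, lists and alternatives were chosen with earlier results of these data known. A first fit here used TMM factors over all features and is kept as an added alternative. Positions and exon lengths are from GENCODE M21 (GRCm38), by symbol, and promoters from RefSeq (GRCm38.p6).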

Additional observations from a re-analysis of the deposited data

Results flagged for a closer look

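In the group of 4 cKO MED1 libraries, 2 of the 36 genes had 1 library far from the other 3, by the gap to its nearest neighbour as a share of the whole range (above the 95% critical value of Dixon's test for 4 samples). Chance alone gives such a gap in about 1 of 20 groups. Bard1 was at 721 normalised reads in cKO MED1 replicate 4, against 947 in the nearest library (0.831 of the range). Slx4 was at 2202 in cKO MED1 replicate 1, against 1775 in the nearest library (0.937 of the range).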

How the results depend on the processing

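The settings with RLE factors, the authors' size factors, total reads, no filter, a CPM of 1 in 3 libraries, a pseudocount of 5, edgeR, DESeq2, limma-voom, a subtracted background and TMM factors over all features (added after seeing the data) left between 18 and 24 members lower and 0 higher. The share of all genes tested that fell differed widely among these settings. It ran from 5.2% with no filter to 24.2% with total reads, against 14.6% as reported. Values that moved were these: without cKO MED1 replicates 3 and 4, 8 members and 15 other pathway genes were lower, with 2156 for all genes called. With sex as a covariate the 3 counts were 0, 0 and 228, and at an adjusted p threshold of 0.01 they were 5, 12 and 1307, against 20, 25 and 5065 as reported. Leaving out 1 library gave 7 to 22 members lower, 12 to 28 other pathway genes lower and 1557 to 6128 genes in all. The lowest of these came without WT replicate 1. The self-test recovered few changes as small as those of most members. It changed only 67, 67 and 66 of 17569 genes, a far smaller share than was called in the data. Its adjusted threshold was therefore stricter, and its recovery does not measure that of the fit reported here. Genes that did not pass are not shown to be unchanged. Of all calls 47.8% were higher as reported, 37.3% with the authors' size factors, 31.8% with total reads and 31.9% with TMM factors over all features, where the median of all genes shifted from 0.04 to -0.10, -0.21 and -0.12 (log2) and that of the members from -0.33 to -0.46, -0.57 and -0.49.

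Among the 20 genes that fell none of the 21 alternative fits turned the direction. Leaving aside the fit with sex as a covariate, 7 kept the call in every one. Of these 7, Nbn and Xrcc2 missed the stricter threshold of 0.01 in the reported fit (limma adjusted p = 0.0102 and 0.01001). Signs turned for genes that had not passed, in the log2 fold change Rad51b had with sex in the model (-0.00198), in the log2 fold change Atrip had with total reads (-0.0584), and the log2 fold change Fancc had with RLE factors (-0.00761), the authors' size factors (-0.124), total reads (-0.235), TMM over all features (-0.148), DESeq2 (-0.00882), the replicate block (-0.00239) and without cKO MED1 replicates 3 and 4 (-0.0172). Leaving out 1 library moved the log2 fold change Fancc had from -0.0972 to 0.0313, below 0 without WT replicate 1, 2 or 3 (-0.0187, -0.0198 and -0.0972). The cause was not tested. With the replicate number as a block, 15 members were lower, all 15 among the 20, where 10.1% of all genes tested were lower. cKO MED1 replicate 4 has no WT counterpart. Deviations from the group means correlated by 0.51, -0.23 and 0.16 between libraries of the same number 1, 2 and 3. Between libraries of different numbers the correlations ran from -0.58 to 0.40. Whether the numbers pair the libraries cannot be told from these values.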
